A study of Mus musculus with 23 samples.

Results

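The 6 libraries described here, of 23 in the series, hold RNA of mouse pancreatic tumour organoids of the line T6-LOH, sorted away from the pancreatic stellate cells (PSCs) with which they had grown. They were chosen by their titles: 3 cultures held PSCs of the parent line PSC5 (labelled Rosa, KO C5 and KO D4) and 3 held PSCs of the parent line PSC4 (labelled Rosa, KO A3 and KO B4). Rosa PSCs are WT for Egfr per the labels and KO PSCs are Egfr knockouts, so the organoids, all of 1 line, differ by label in the PSCs beside them. Genotype entered the main tests as a covariate, and alternative fits without it are named where they are used. All cultures were kept in Matrigel for 3.5 days in the reduced or control medium of the labels. The question was which genes differ with the PSC parent line in the same tumour cells.

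Each parent line is represented by 1 Rosa line and 2 knockout lines that are not shared with the other parent, with 1 library of each. Nothing in the labels says that the 6 libraries came from separate days or plates, so p-values measure only the spread between these libraries, and a difference of the culture run cannot be told apart from one of the parent line. The stellate cells of the same 6 cultures, sequenced as a separate sorted fraction, were used as context. In those PSC libraries Egfr stood at 276.9, 57.8 and 113.6 CPM (read counts scaled by library size) with PSC4 (Rosa, KO A3, KO B4) and at 414.3, 109.7 and 342.0 CPM with PSC5 (Rosa, KO C5, KO D4). The library labelled KO D4 thus kept an Egfr transcript level near that of its Rosa line, and transcript counts do not show whether a small deletion removed the protein. Per-library values below keep this order of PSC lines.

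Stellate cells are the fibroblast precursors of the pancreas, and in tumours they lay down matrix and send growth factors, cytokines and metabolites to the epithelium. Tumour organoids grown next to them receive those signals in a shared gel and medium. Among the programmes that epithelial cells adjust to their surroundings are the hypoxia response, driven by HIF transcription factors, xenobiotic and glutathione metabolism, driven by the aryl hydrocarbon receptor and NRF2, sterol synthesis under SREBP control, metal handling under MTF1 control, and the antiviral state set by interferon.

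The organoid libraries held 29281571 to 34643087 estimated counts. Epithelial identity was plain: Epcam, the epithelial adhesion molecule, lay between 850.8 and 1138 CPM and Krt19, a ductal keratin, between 2288 and 2734 CPM, while Col1a1, the main fibroblast collagen, lay between 0.35 and 4.16 CPM and Pdgfrb, a stellate receptor, between 0 and 0.14 CPM. The summed level of 25 stellate and fibroblast markers was 34.7 to 97.9 CPM with PSC4 and 45.2 to 135 CPM with PSC5, against 19900 to 37200 CPM in the PSC fraction, and 3 of the 25 were at 0 in all 6 organoid libraries. In bulk libraries such as these, fewer cells of a kind and less RNA per cell cannot be told apart. A set of 20 such markers put the PSC carry-over at 0.00863 to 0.0269% of the PSC level with PSC4 and at 0.0154 to 0.0721% with PSC5. At those shares, carried-over RNA would make up at most 1.19% of the level of any gene called below (Mt2) and 0.0384% of the median called gene. Mitochondrial transcripts took 3.50 to 3.91% of reads with PSC4 and 3.05 to 3.42% with PSC5, ranges that do not overlap, and their part in the results was not tested. On the first principal component, with 52.3% of the variance over 11475 genes, the PSC5 Rosa library stood farthest out at 31.4, and the other 5 lay between -20.2 and 8.4.

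A small set of organoid genes differed by moderate amounts between cultures with PSC5 and with PSC4. Of 13953 genes tested, 104 (0.745%) passed an adjusted p of 0.05 in edgeR's quasi-likelihood test, 50 (0.358%) higher and 54 (0.387%) lower with PSC5, and 2345 had an unadjusted p under 0.05. Among the 100 called genes with a mean log2 CPM of at least 1, the median absolute log2 fold change was 0.49 and the smallest 0.28, so most shifts were well under a doubling. The difference pointed the same way with Rosa and with KO PSCs for 101 of the 104. In 89 of the 104 the 3 PSC5 libraries did not overlap the 3 PSC4 libraries, as was the case for 18.5% of all genes tested. The genes were called on these same 6 libraries, so both counts follow in part from that choice and are no separate support. The median log2 fold change of all genes was -0.001. Some called genes also varied with PSC genotype. In the same fit 81 of the 104 had a KO minus Rosa difference of the opposite sign, and 24 were also called for genotype. Each parent line has 1 Rosa library. The same shares over all genes were not counted, so the called genes are not shown to vary with genotype more than others. The count leaned on single libraries: it was 0 without the library with PSC4 KO A3 (1499 at an unadjusted p under 0.05), 50 without PSC5 KO C5, 69 without PSC5 Rosa and 243 without PSC5 KO D4. It was also 0 without the genotype covariate (1571 unadjusted), 524 with DESeq2 and 485 with no filter on low counts. The sign of all 104 was kept in each leave-one-out fit that tested them, 19 passed in 5 of the 6 such fits, and 16 passed in none. These fits share most of their libraries with the main fit, so a kept sign is no separate support either.

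**Figure D1:**
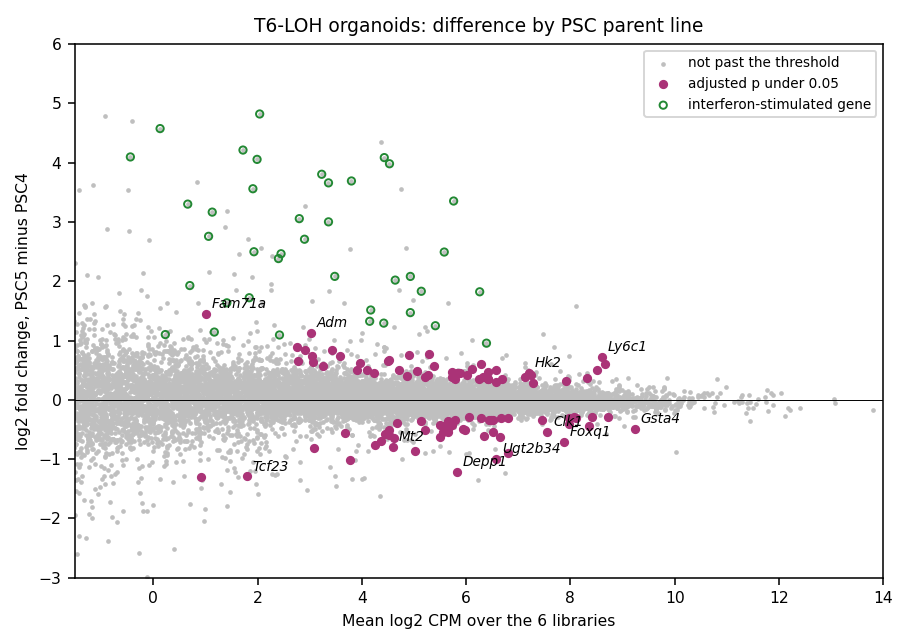
Log2 fold change (PSC5 minus PSC4) against mean log2 CPM for the genes tested in the 6 T6-LOH organoid libraries, 1 point per gene, with genes past the threshold filled and interferon-stimulated genes ringed; 187 genes, 3 of them called, lie outside the axes. The called genes form 2 bands on either side of 0, and the ringed genes sit higher, up to a log2 fold change near 5, without passing the test.

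The genes that rose included several of the low-oxygen response. Adm, which encodes the vasodilator peptide adrenomedullin, stood at 5.66, 4.91 and 5.16 CPM with PSC4 and at 12.1, 12.4 and 9.81 CPM with PSC5. This is a log2 difference of 1.13 ± 0.12 (± is the standard error here and below; adjusted p = 0.00949). The 3 PSC5 values all lay well above the 3 PSC4 values, and Adm kept its call in 5 of the 6 leave-one-out fits. Hk2, the hexokinase that commits glucose to glycolysis, stood at 137.8, 124.1 and 121.1 CPM with PSC4 and at 181.3, 181.5 and 158.6 CPM with PSC5 (log2 fold change 0.45 ± 0.06, adjusted p = 0.0209). Pfkfb3, which makes the activator of phosphofructokinase, stood at 92.8, 67.7 and 80.6 CPM and at 142.0, 102.9 and 97.9 CPM (0.51 ± 0.07, adjusted p = 0.0258). For Pfkfb3 the Rosa culture was the highest of each parent line, and the groups were separated by a narrow gap.

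Plod2, a lysyl hydroxylase that prepares collagen for cross-linking, stood at 16.8, 18.9 and 18.9 CPM with PSC4 and at 29.6, 28.9 and 28.0 CPM with PSC5, a log2 fold change of 0.68 ± 0.08 (adjusted p = 0.0116). These values were tight within each group and far apart between groups. Plod1, its paralog, named after its value was seen, rose by 0.51 ± 0.08 (adjusted p = 0.0336) and P4ha1, a prolyl hydroxylase subunit, by 0.34 ± 0.05 (adjusted p = 0.0329), both without overlap. Vegfa, the vascular growth factor, stood at 367.5, 266.2 and 282.7 CPM with PSC4 and at 600.1, 388.5 and 335.9 CPM with PSC5 (0.51 ± 0.09, adjusted p = 0.0451). Its groups overlapped, since the PSC5 KO D4 value lay below the PSC4 Rosa value, and within each parent the Rosa culture was the highest. Ddit4, a stress-induced inhibitor of mTORC1, showed the same order and rose by 0.45 ± 0.07 (adjusted p = 0.0329).

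Across the list of glycolysis and hypoxia genes, 6 of 32 measured members rose (Adm, Hk2, Pfkfb3, P4ha1, Ddit4 and Vegfa) and 0 fell, beside 0.358% and 0.387% of all genes. The list's median log2 fold change was 0.14, 25 members had a positive sign, and 8 had all 3 PSC5 libraries above the PSC4 libraries, beside 7.94% of all genes. Ankrd37, a hypoxia-induced ankyrin protein, did not pass, at a log2 fold change of 0.52 ± 0.13 (adjusted p = 0.101). The number of members that rose was 0 in edgeR without PSC4 KO A3 (11 unadjusted), 2 without PSC5 KO C5 and 3 without either Rosa library.

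Other genes that rose had no common list. Ly6c1, a GPI-anchored surface protein of the Ly6 family, stood at 347.3, 280.1 and 281.1 CPM with PSC4 and at 545.0, 505.7 and 440.2 CPM with PSC5, a log2 fold change of 0.72 ± 0.06 (adjusted p = 0.00775). It was the most abundant of the 12 named genes that rose, and its level in PSCs was lower, at 53.8 to 111.6 CPM; as a member of a family of near-identical genes its counts may include reads of a relative. Ier5l, related to an immediate early response gene, stood at 20.9, 16.3 and 16.9 CPM and at 31.8, 25.8 and 27.3 CPM (0.66 ± 0.07, adjusted p = 0.00949). Gadd45g, a stress-induced growth arrest gene, stood at 6.83, 5.67 and 6.53 CPM and at 12.5, 9.67 and 9.57 CPM (0.74 ± 0.12, adjusted p = 0.0321). For both genes the PSC5 Rosa culture was the highest of the 6 and the groups did not overlap.

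Plat, the tissue plasminogen activator, stood at 354.3, 292.4 and 345.9 CPM with PSC4 and at 538.1, 515.6 and 447.7 CPM with PSC5 (log2 fold change 0.60 ± 0.08, adjusted p = 0.0156). Fgf15, an endocrine fibroblast growth factor best known from the ileum, stood at 37.0, 24.4 and 25.8 CPM and at 72.6, 42.4 and 36.6 CPM (0.77 ± 0.09, adjusted p = 0.0116). The Fgf15 groups overlapped at the PSC4 Rosa and PSC5 KO D4 cultures, but Rosa was above Rosa and KO above KO. In the 5 organoid libraries of other tumour lines Fgf15 lay between 0.22 and 6.00 CPM. Trpm6, a magnesium channel, rose by 0.51 ± 0.07 (adjusted p = 0.0207) and Fat2, an atypical cadherin on the list of basal-like genes, by 0.48 ± 0.07 (adjusted p = 0.0226). Fat2 was the only called gene among that list's 20 measured members, beside 0.358% of all genes called higher.

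The remaining named genes that rose were less abundant. Fam71a stood at 1.56, 0.94 and 0.78 CPM with PSC4 and at 3.62, 3.01 and 2.14 CPM with PSC5, a log2 fold change of 1.45 ± 0.25 (adjusted p = 0.0395) that is the largest of the named genes but rests on low counts. Acap1, an ARF6 GTPase activator, rose by 0.89 ± 0.12 (adjusted p = 0.0167) and Jrk, a DNA-binding protein, by 0.84 ± 0.12 (adjusted p = 0.0209). Hunk, a serine kinase, rose by 0.84 ± 0.15, Cep170, a centrosome protein, by 0.76 ± 0.12, Tuba8, an alpha tubulin, by 0.75 ± 0.13, and Zfp960, a zinc finger gene, by 0.65 ± 0.12 (adjusted p = 0.0412 to 0.0451). Zfp960 passed in 0 of the 6 leave-one-out fits, Fam71a and Hunk in 1, Cep170 and Tuba8 in 2, Jrk in 3 and Acap1 in 4.

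**Figure D2:**
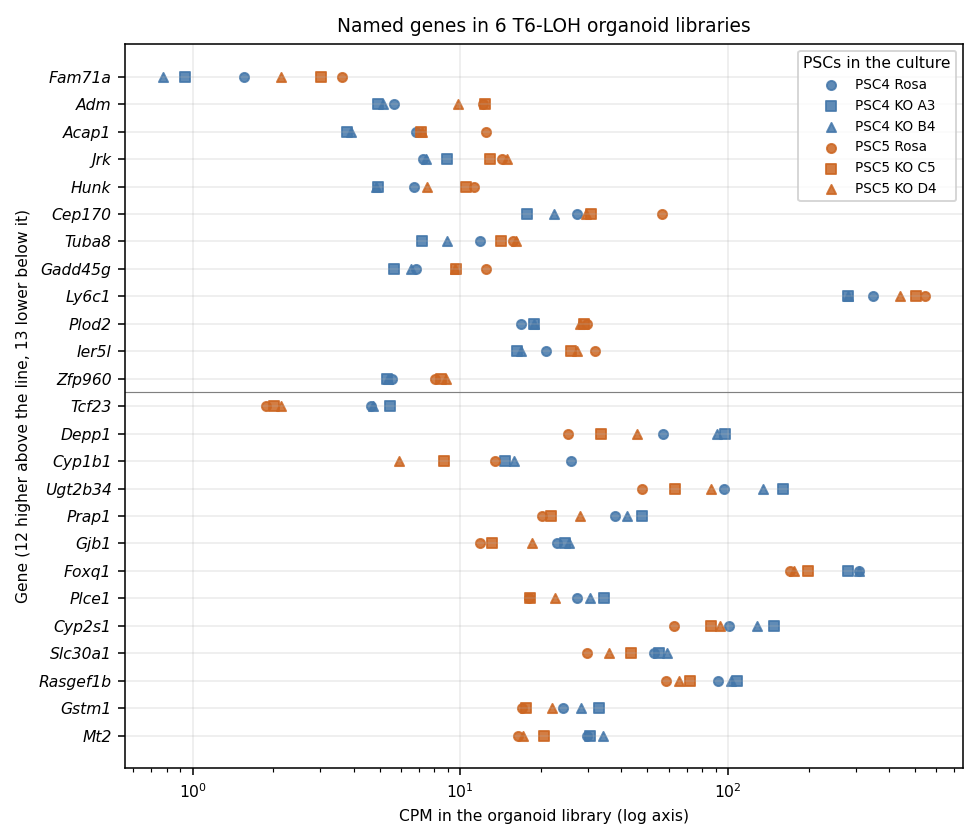
CPM (log axis) of the 25 named genes in each of the 6 T6-LOH organoid libraries, with PSC4 cultures in blue and PSC5 cultures in orange, and a marker shape for the PSC line. Above the line the orange points lie to the right of the blue ones for 12 genes, and below it they lie to the left for 13 genes.

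Genes of xenobiotic and glutathione metabolism fell with PSC5. Cyp1b1, an oxidising enzyme and classical target of the aryl hydrocarbon receptor, stood at 25.8, 14.7 and 15.8 CPM with PSC4 and at 13.5, 8.66 and 5.91 CPM with PSC5, a log2 fold change of -1.01 ± 0.14 (adjusted p = 0.0209). The 3 PSC5 values lay below all PSC4 values. Its level in the PSCs was higher, 68.9 to 211.0 CPM, and there it had a log2 fold change of -0.07 ± 0.23 (adjusted p = 0.924). Cyp2s1, another oxidase of that pathway, stood at 100.7, 148.1 and 127.9 CPM and at 62.8, 86.5 and 93.6 CPM (-0.63 ± 0.07, adjusted p = 0.00949). Ugt2b34, a glucuronosyltransferase, stood at 96.9, 160.3 and 135.4 CPM and at 47.8, 63.2 and 86.4 CPM (-0.99 ± 0.13, adjusted p = 0.0477). For Cyp2s1 and Ugt2b34 the Rosa cultures were the lowest of each parent, and the order was opposite for Cyp1b1.

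Ugt1a7c, a further conjugating enzyme whose gene shares exons with its neighbours, fell by 0.54 ± 0.06 (adjusted p = 0.00949) and kept its call in 5 of 6 leave-one-out fits. These 4 genes made up the calls among 22 measured members of the xenobiotic list, with 0 called higher, beside 0.387% of all genes called lower and 0.358% higher. The median of the list was -0.82, 20 members had a negative sign, and 12 had all PSC5 libraries below the PSC4 libraries, beside 10.5% of all genes. Members that did not pass include Cyp2c65 (log2 fold change -1.32 ± 0.22, adjusted p = 0.0767) and Ugt1a6a (-1.28 ± 0.26, adjusted p = 0.115). Without PSC4 KO A3 the number of calls in edgeR was 0 (12 unadjusted), without PSC5 KO D4 it was 7, and with all 11 organoid libraries in the fit it was 2.

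Among glutathione S-transferases, which attach glutathione to reactive compounds, Gsta4 was the most abundant. It stood at 653.7, 758.5 and 754.8 CPM with PSC4 and at 447.5, 502.2 and 594.7 CPM with PSC5 (log2 fold change -0.49 ± 0.07, adjusted p = 0.0190). Gsta1 stood at 105.3, 168.1 and 174.3 CPM and at 52.9, 79.2 and 108.2 CPM (-0.90 ± 0.11, adjusted p = 0.0302); its groups overlapped by a narrow margin, and its counts can be shared with a near-identical paralog. Gstm1 fell by 0.59 ± 0.11 (adjusted p = 0.0451), and Gsta3 missed the threshold at -0.40 ± 0.08 (adjusted p = 0.0594). On the list of NRF2 targets and redox genes these 3 were the calls among 30 measured members (0.387% of all genes were called lower), 0 were called higher, 10 members lay lower without overlap (10.5% of all genes did), and the median was -0.11. That median was -0.05 without either Rosa library, and with those libraries left out 0 members were called by edgeR (9 at an unadjusted p under 0.05 in either case), nor were any without PSC4 KO A3 (8 unadjusted).

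The other large decreases were at genes of varied roles. Depp1, an autophagy regulator induced by FOXO factors and fasting, stood at 57.2, 97.3 and 90.9 CPM with PSC4 and at 25.3, 33.5 and 45.7 CPM with PSC5, a log2 fold change of -1.22 ± 0.11 (adjusted p = 0.00971). Prap1, a secreted protein of the gut lining, stood at 37.8, 47.9 and 42.1 CPM and at 20.2, 21.8 and 28.0 CPM (-0.87 ± 0.10, adjusted p = 0.0116). Gjb1, the gap junction protein connexin 32, stood at 23.0, 24.7 and 25.4 CPM and at 11.8, 13.1 and 18.5 CPM (-0.75 ± 0.13, adjusted p = 0.0451). In each of these 3 genes the culture with PSC5 Rosa was the lowest and the groups did not overlap. Gjb1 was the only call among 31 measured junction and claudin genes, beside 0.387% of all genes called lower.

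Foxq1, a forkhead transcription factor of the stomach and of carcinomas, stood at 309.2, 280.1 and 307.5 CPM with PSC4 and at 170.1, 199.2 and 176.2 CPM with PSC5 (log2 fold change -0.71 ± 0.07, adjusted p = 0.00775). Tcf23, a helix-loop-helix factor, stood at 4.62, 5.46 and 4.73 CPM and at 1.88, 2.01 and 2.14 CPM (-1.29 ± 0.17, adjusted p = 0.0190). Values of both factors were tight within a parent line, and Foxq1 kept its call in 5 of 6 leave-one-out fits. Hes1, the transcriptional repressor induced by Notch, fell by 0.40 ± 0.07 (adjusted p = 0.0403). It was 1 of 14 measured Notch and Hedgehog genes to pass, beside 0.387% of all genes called lower. Plce1, a phospholipase, fell by 0.64 ± 0.10 (adjusted p = 0.0288), and Rasgef1b, a RAS-family exchange factor, by 0.61 ± 0.06 (adjusted p = 0.00775). Selenbp1, a methanethiol oxidase of mature gut epithelium, fell by 0.49 ± 0.06 (adjusted p = 0.0165), and Tmprss2, a membrane serine protease, by 0.29 ± 0.05 (adjusted p = 0.0451).

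**Figure D3:**
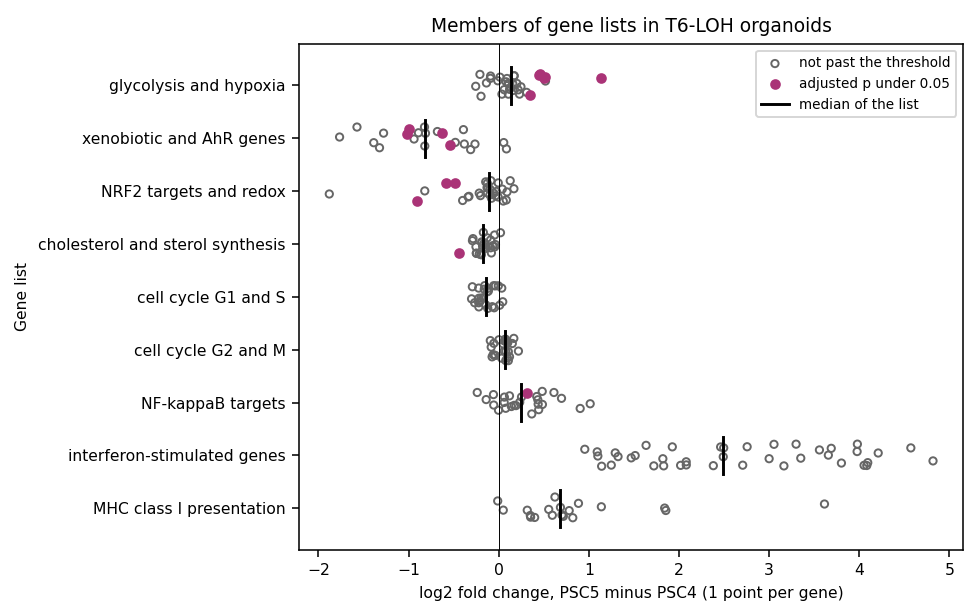
Log2 fold change (PSC5 minus PSC4) of each measured member of 9 gene lists in the T6-LOH organoids, with called genes filled and the list's median as a bar. The called genes lie right of 0 for glycolysis and hypoxia and left of 0 for the xenobiotic, NRF2 and sterol lists, while the 40 interferon-stimulated genes spread from about 1 to 5 with none called.

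Metallothioneins and a zinc exporter fell together. Mt1, a cysteine-rich protein that buffers zinc and copper, stood at 62.1, 59.1 and 61.9 CPM with PSC4 and at 39.2, 41.3 and 45.4 CPM with PSC5, a log2 fold change of -0.54 ± 0.07 (adjusted p = 0.0116). Mt2, its neighbour and paralog, stood at 29.7, 30.6 and 34.2 CPM and at 16.4, 20.6 and 17.1 CPM (-0.80 ± 0.09, adjusted p = 0.00949). Slc30a1, which encodes the zinc exporter ZnT1, stood at 52.9, 55.4 and 59.2 CPM and at 29.8, 43.5 and 36.0 CPM (-0.62 ± 0.09, adjusted p = 0.0268). In all 3 genes the groups were fully separated, and Mt1 and Mt2 kept their calls in 5 of 6 leave-one-out fits. The list of zinc and metal-responsive genes that holds them was drawn up after their values were seen, so its count (3 of 9 measured members lower, 0 higher, median -0.10) is a description only.

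In the PSCs the same genes had log2 fold changes of -0.58 ± 0.15 for Mt1, -0.70 ± 0.29 for Mt2 and -0.62 ± 0.16 for Slc30a1, with adjusted p of 0.283, 0.399 and 0.282. Mt1 lay between 166.4 and 207.8 CPM in PSC5 cells and between 227.0 and 365.4 CPM in PSC4 cells, and Slc30a1 between 11.4 and 12.1 and between 16.8 and 20.2 CPM. Mt1 and Slc30a1 did not overlap between the parents in the stellate fraction, where 10.1% of all genes lay lower without overlap, but neither passed the test there. Mt2 did overlap, at 627.5, 241.5 and 241.5 CPM in PSC4 cells and at 271.1, 232.1 and 120.8 CPM in PSC5 cells. Mt2 was the only called gene whose PSC level was 10 times or more its organoid level.

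These 3 genes are textbook targets of the metal-responsive factor MTF1, and the 250 bases before the RefSeq start of each are shown for that reason (RefSeq, build GRCm38.p6). Mt1 lies at chr8:94178839-94179088 (plus strand), Mt2 at chr8:94172368-94172617 (plus strand) and Slc30a1 at chr1:191906531-191906780 (plus strand). Capitals mark matches to the core of the metal response element, searched as TGCACNC and TGCGCNC on both strands: 1 in Mt1, 3 in Mt2 and 1 in Slc30a1. Bases beyond these 250 on either side were not searched, so the counts hold for this stretch only and can miss elements nearby.
Mt1: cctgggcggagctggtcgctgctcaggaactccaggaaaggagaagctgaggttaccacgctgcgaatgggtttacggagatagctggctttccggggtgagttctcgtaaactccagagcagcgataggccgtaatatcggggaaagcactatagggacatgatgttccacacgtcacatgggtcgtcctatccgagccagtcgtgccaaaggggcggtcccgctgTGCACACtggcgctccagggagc
Mt2: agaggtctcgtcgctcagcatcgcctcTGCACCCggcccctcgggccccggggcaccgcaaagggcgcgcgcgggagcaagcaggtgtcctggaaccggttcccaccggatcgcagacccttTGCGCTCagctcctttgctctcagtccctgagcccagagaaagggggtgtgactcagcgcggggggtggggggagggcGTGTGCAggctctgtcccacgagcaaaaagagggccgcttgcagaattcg
Slc30a1: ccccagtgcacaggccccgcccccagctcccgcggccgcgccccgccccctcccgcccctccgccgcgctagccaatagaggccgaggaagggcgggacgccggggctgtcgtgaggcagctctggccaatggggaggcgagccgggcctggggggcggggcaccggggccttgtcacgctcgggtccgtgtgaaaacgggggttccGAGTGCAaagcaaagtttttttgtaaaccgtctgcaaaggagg
At least 1 match was found in 21.4% and at least 3 in 1.26% of 32841 mouse promoters of this length, so the single matches are common and the letters alone show no binding.

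Sterol synthesis genes lay mostly on the lower side with PSC5, by small amounts. Insig1, the sterol sensor that retains SREBP in the endoplasmic reticulum and is itself an SREBP target, stood at 360.7, 391.4 and 409.1 CPM with PSC4 and at 279.9, 291.5 and 282.7 CPM with PSC5 (log2 fold change -0.43 ± 0.05, adjusted p = 0.0121). It was the only call among 25 measured members of the list, beside 0.387% of all genes called lower. But 24 of the 25 had a negative sign, 14 lay lower without overlap (beside 10.5% of all genes), and the median was -0.17. Hmgcs1, which makes the precursor of mevalonate, stood at 635.1, 660.3 and 702.5 CPM and at 563.2, 545.8 and 522.6 CPM (-0.28 ± 0.06, adjusted p = 0.0702). Idi1, an isomerase of the same pathway, had a log2 fold change of -0.25 ± 0.05 (adjusted p = 0.0563).

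The stellate cells of the same cultures showed the same sign at a larger size. Of the 25 sterol genes, 24 were negative there, with a median log2 fold change of -0.49. An unadjusted p under 0.05 was found for 15, beside 12.6% of all genes tested in PSCs. But 0 passed in edgeR's quasi-likelihood test and 0 with limma-voom. DESeq2 called 7, all lower, beside 4.26% of all genes in either direction. Insig1 stood at 390.7, 436.5 and 341.0 CPM in PSC4 cells and at 231.7, 215.1 and 235.1 CPM in PSC5 cells (-0.77 ± 0.13, adjusted p = 0.220). Hmgcs1 stood at 320.7, 384.1 and 292.1 CPM and at 227.8, 148.3 and 131.0 CPM (-1.01 ± 0.21, adjusted p = 0.256). Both genes were thus fully separated by parent line in both fractions. The mean log2(CPM + 0.5) of the list in these PSCs was 6.79, 6.70 and 6.45 for PSC4 and 6.45, 5.83 and 6.09 for PSC5. In PSC4 cells (Rosa, KO A3, KO B4) it was 7.14, 6.57 and 5.82 beside the organoid line T12-LOH. Beside the line T69A it was 6.95, 6.58 and 6.10. PSC4 KO B4 cells thus reached levels as low as PSC5 cells.

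**Figure D4:**
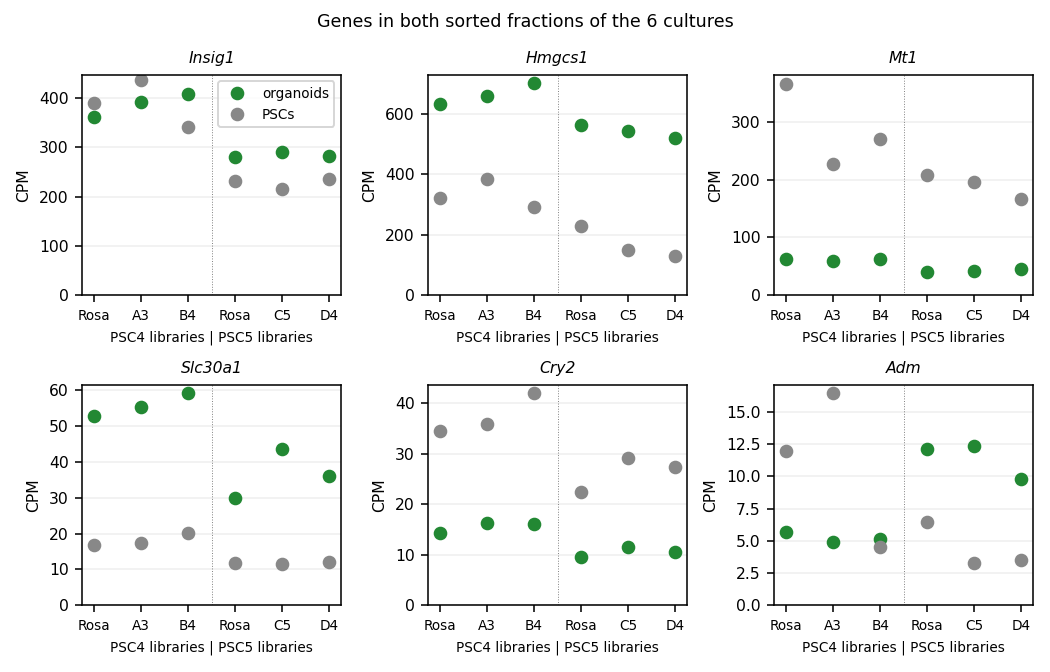
CPM of Insig1, Hmgcs1, Mt1, Slc30a1, Cry2 and Adm in the organoid fraction (green) and the PSC fraction (grey) of the 6 cultures, with PSC4 cultures left and PSC5 cultures right of the dotted line. The first 5 genes lie lower on the right in both fractions, and Adm lies higher on the right in organoids but not in PSCs. The genes shown are picked examples. Other called genes lay on opposite sides in the 2 fractions. Hk2 was higher with PSC5 in organoids but lower in PSCs (log2 fold change -0.39). Hes1 was lower in organoids but higher in PSCs (0.45), both without overlap. How many called genes had the same sign in both fractions was not counted.

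Interferon-stimulated genes varied widely from culture to culture, within as well as between the parent lines. Isg15, a ubiquitin-like antiviral protein, stood at 4.32, 0.84 and 1.27 CPM with PSC4 and at 49.8, 27.9 and 1.66 CPM with PSC5, a log2 fold change of 3.69 ± 1.33 (adjusted p = 0.329). Oas2, a sensor of double-stranded RNA, stood at 4.71, 1.36 and 1.55 CPM and at 72.3, 51.0 and 1.83 CPM (4.08 ± 1.52, adjusted p = 0.338). Stat2, a transcription factor of the interferon response, stood at 15.4, 10.9 and 10.6 CPM and at 49.6, 31.6 and 13.4 CPM (1.29 ± 0.42, adjusted p = 0.280). The organoids with PSC5 Rosa and with PSC5 KO C5 were high, and those with PSC5 KO D4 lay at the level of the PSC4 cultures.

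All 40 measured members of the list were above each of the 3 PSC4 libraries in the PSC5 Rosa and in the PSC5 KO C5 culture, and 2 of 40 were in the PSC5 KO D4 culture. The same shares over all genes were not counted, so these counts are a description only. With all 6 libraries 0 of the 40 passed in edgeR's quasi-likelihood test (15 at an unadjusted p under 0.05, 13 called with DESeq2, 0 with limma-voom), although all 40 were positive with a median of 2.49. Over all 13953 genes, 2345 had an unadjusted p under 0.05 in edgeR, and DESeq2 called 524. Without PSC5 KO D4, the low PSC5 library, 37 of the 40 passed, where 243 of all 13880 genes tested did. In each other leave-one-out fit 0 members of the list passed. Mx1, an antiviral GTPase, had the smallest adjusted p of the list with all libraries (log2 fold change 1.72 ± 0.30, adjusted p = 0.0508), and Herc6, an ISG15 ligase, was at 1.09 ± 0.23 (adjusted p = 0.0746).

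The PSCs beside the organoids were ordered in the same way. The mean log2(CPM + 0.5) of the 40 genes was 2.11, 1.18 and 1.37 in organoids with PSC4 and 4.59, 3.75 and 1.41 with PSC5. In the PSCs it was 5.12, 3.54 and 4.09 for PSC4 and 6.79, 6.37 and 4.70 for PSC5, so the 2 highest values of either fraction came from the same 2 cultures. In the PSC fraction 39 of the 40 genes were above all 3 PSC4 libraries in PSC5 Rosa, 39 in PSC5 KO C5 and 10 in PSC5 KO D4. Here too the shares over all genes were not counted. In the 5 organoid libraries of other tumour lines, all with PSC4, the mean was 1.60 to 2.82. Carried-over PSC RNA, at the share estimated above, would give 0.236 CPM of Isg15 in the PSC5 Rosa organoids, where 49.8 CPM were measured. Over the 40 genes its share of the organoid level had a median of 0.297% and a highest value of 26.9% in that library. The same values were 0.0892% and 4.61% with PSC5 KO C5, and 0.532% and 61.8% with PSC5 KO D4.

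The antigen presentation machinery, which interferon induces, followed at smaller size. B2m, the light chain of MHC class I, stood at 144.8, 126.0 and 148.7 CPM with PSC4 and at 459.2, 247.1 and 136.9 CPM with PSC5 (log2 fold change 0.89 ± 0.43, adjusted p = 0.431). Psmb8, an immunoproteasome subunit, stood at 2.30, 1.95 and 1.84 CPM and at 11.7, 8.28 and 2.97 CPM (1.85 ± 0.45, adjusted p = 0.152), and Tap2, a peptide transporter, had a log2 fold change of 0.78 ± 0.20 (adjusted p = 0.135). The culture with PSC5 KO D4 was again the lowest of the PSC5 cultures. Of 19 members 0 passed with edgeR (12 at an unadjusted p under 0.05, 5 with DESeq2, 0 with limma-voom), 18 were positive and 5 lay higher without overlap, beside 7.94% of all genes. Of all 13953 genes, 2345 had an unadjusted p under 0.05 in edgeR, and DESeq2 called 524. Without PSC5 KO D4, 12 of the 19 passed, where 243 of all 13880 genes tested did, and 0 members passed in each other leave-one-out fit.

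**Figure D5:**
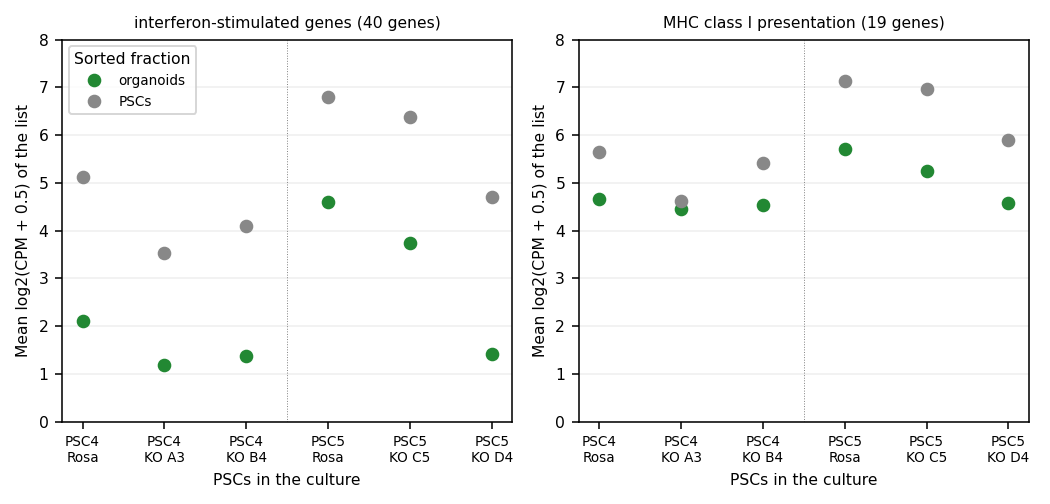
Mean log2(CPM + 0.5) of 40 interferon-stimulated genes (left) and 19 MHC class I presentation genes (right) in the organoid fraction (green) and PSC fraction (grey) of each of the 6 cultures. In both fractions the cultures with PSC5 Rosa (organoid interferon mean 4.59) and PSC5 KO C5 (3.75) stand above the other 4, and PSC5 KO D4 (1.41) lies among the PSC4 cultures in organoids.

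Interferon acts through the factor complex ISGF3, whose binding element is searched here as GAAA, any 2 bases, and GAAA. The 250 bases before the RefSeq start of Isg15, at chr4:156200819-156201068 (minus strand), and of Ifit3, at chr19:34583279-34583528 (plus strand), are shown as 2 examples picked after their values were seen (RefSeq, build GRCm38.p6). Ifit3, an antiviral RNA-binding protein, went from 0.95, 0.10 and 0.21 CPM with PSC4 to 18.9, 3.78 and 0.24 CPM with PSC5. Capitals mark matches to the element on either strand, with 3 overlapping matches in Isg15 and 2 in Ifit3.
Isg15: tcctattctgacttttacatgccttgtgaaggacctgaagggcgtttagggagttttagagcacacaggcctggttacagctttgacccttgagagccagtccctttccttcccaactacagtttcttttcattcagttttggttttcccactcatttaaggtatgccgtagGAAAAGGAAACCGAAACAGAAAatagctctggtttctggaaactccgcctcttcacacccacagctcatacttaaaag
Ifit3: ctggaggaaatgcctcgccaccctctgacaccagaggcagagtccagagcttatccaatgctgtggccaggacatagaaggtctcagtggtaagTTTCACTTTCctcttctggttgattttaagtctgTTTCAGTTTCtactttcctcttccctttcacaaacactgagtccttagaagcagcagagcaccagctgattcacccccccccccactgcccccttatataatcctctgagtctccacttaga
A match was found in 2.98% of 32841 promoters of this length, at least 2 in 0.18%, and in 19 of the 30 interferon-list genes that have an entry in the promoter table.

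Inflammatory mediators made by the organoids shifted at a few genes. Cxcl3, a neutrophil-attracting chemokine, stood at 9.37, 13.6 and 14.4 CPM with PSC4 and at 12.2, 24.3 and 22.0 CPM with PSC5 (log2 fold change 0.62 ± 0.10, adjusted p = 0.0329). Here the Rosa cultures were the lowest of each parent, and the groups overlapped. Tnfsf9, the ligand of 4-1BB, rose by 0.50 ± 0.09 (adjusted p = 0.0412). Cxcl3 and Tnfsf9 were the only calls among 26 measured chemokines and cytokines, beside 0.358% of all genes called higher. Tnfaip2, a TNF-induced gene, rose by 0.32 ± 0.05 (adjusted p = 0.0336), the only call among 26 measured NF-kappaB targets. Of those targets 21 had a positive sign, and the median was 0.24. Without overlap, 5 lay higher and 1 lower, beside 7.94% and 10.5% of all genes. Nfkbia, the inhibitor of NF-kappaB, had a log2 fold change of 0.42 ± 0.13 and did not pass (adjusted p = 0.197).

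Clk1, a kinase of splicing factors, stood at 239.9, 223.9 and 224.1 CPM with PSC4 and at 159.8, 160.6 and 150.8 CPM with PSC5 (log2 fold change -0.54 ± 0.05, adjusted p = 0.00775). The values were close together within each parent line, and the call held in 5 of 6 leave-one-out fits. Srsf6, a splicing factor, fell by 0.30 ± 0.05, Luc7l3 by 0.31 ± 0.06, Hnrnpdl by 0.29 ± 0.05, Fubp1 by 0.43 ± 0.07 and Rbm12 by 0.46 ± 0.08 (adjusted p = 0.0313 to 0.0443). These 5 RNA-binding proteins were picked out after their values were seen, with no list or test behind the choice. Fubp1 passed in 3 of the 6 leave-one-out fits and the other 4 in none.

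A clock gene fell as well. Cry2, a repressor of the circadian clock, stood at 14.3, 16.4 and 16.2 CPM with PSC4 and at 9.58, 11.6 and 10.6 CPM with PSC5 (log2 fold change -0.55 ± 0.09, adjusted p = 0.0329). Among 18 measured clock genes Cry2 was the only call, beside 0.387% of all genes called lower. In the PSCs it had a log2 fold change of -0.51 ± 0.13 (adjusted p = 0.289). Hours of collection are not given in the labels, so a difference in clock phase cannot be told apart from one of the parent line. The mitochondrial gene mt-Nd3 fell by 0.29 ± 0.05 (adjusted p = 0.0336). It was 1 of 13 mitochondrial genome genes to pass, beside 0.387% of all genes called lower. Without overlap, 9 of the 13 lay lower, beside 10.5% of all genes.

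Growth genes gave few calls. Mki67, the proliferation marker, stood at 383.5, 435.7 and 419.9 CPM with PSC4 and at 366.3, 515.5 and 470.0 CPM with PSC5 (log2 fold change 0.12 ± 0.07, adjusted p = 0.401). Of 25 genes of G1 and S phase 0 passed with edgeR (10 at an unadjusted p under 0.05, 3 lower with DESeq2, 0 with limma-voom), with a median of -0.14 and 11 lower without overlap, beside 10.5% of all genes. Of 26 genes of G2 and M phase 0 passed (3 unadjusted, 0 with DESeq2 or limma-voom), with a median of 0.07. This depended on the setting. With KO libraries only, 15 of the 26 had an unadjusted p under 0.05 in edgeR, with a median of 0.17, and 0 passed. The G1 and S list had 4 of 25 there, with a median of -0.06. Of all genes in that fit, 1925 of 13673 had such a p. Egfr in the organoids stood at 96.9, 75.8 and 89.0 CPM and at 119.9, 91.4 and 86.0 CPM (0.18 ± 0.07, adjusted p = 0.267). Of 13 EGFR ligands and ERBB receptors 0 passed (4 unadjusted, 1 with DESeq2, 0 with limma-voom), and of 35 MAPK feedback and immediate-early genes 0 passed (9 unadjusted, 2 with DESeq2, 0 with limma-voom), each with a median of 0.02. Of all 13953 genes tested with the 6 libraries, 2345 had an unadjusted p under 0.05 in edgeR, and DESeq2 called 524.

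Whether the effect of Egfr loss in the PSCs differed between the parent lines was asked by an interaction over the same 6 libraries. Of 14437 genes, 3 (0.0208%) passed, 1 (0.00693%) higher and 2 (0.0139%) lower, and 1444 had an unadjusted p under 0.05. None of the 104 genes called for the parent line was called here, and 7 of them had an unadjusted interaction p under 0.05. Pif1, a DNA helicase, stood at 11.9, 11.9 and 10.3 CPM with PSC4 and at 2.73, 13.7 and 14.5 CPM with PSC5, so its interaction of 2.44 ± 0.23 on the log2 scale (adjusted p = 0.0134) came from a low value in the PSC5 Rosa culture alone.

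The PSC fractions of these cultures place the organoid differences in context. Of 14236 genes tested in the PSCs, 2 (0.0140%) passed, both higher in PSC5 cells: Tmem176a, which stood at 20.9, 15.8 and 20.5 CPM in PSC4 cells and at 280.2, 263.8 and 266.2 CPM in PSC5 cells, and its neighbour Tmem176b (28.1 ± 4.1 against 318.8 ± 37.4 CPM, mean ± SD), a pair of membrane proteins of antigen-presenting cells. Both have an adjusted p under the threshold with the 6 PSC libraries (0.0042 and 0.00927). The count was 0 in edgeR with KO libraries only (1111 unadjusted) and without PSC4 Rosa (1158), PSC5 Rosa (1155) or PSC5 KO D4 (1068), and 606 with DESeq2. Of the 104 organoid genes 87 were tested in PSCs, where 0 passed, 26 had an unadjusted p under 0.05 (12.6% of all genes tested in PSCs did) and DESeq2 called 3 higher and 6 lower (4.26% of all genes in either direction).

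Secreted factors that the organoids could receive were not called in edgeR. Of 79 measured ligands 0 passed in its quasi-likelihood test and 0 with limma-voom. An unadjusted p under 0.05 was found for 19 of the 79, beside 12.6% of all genes tested in PSCs. DESeq2 called 5 higher and 6 lower, beside 4.26% of all genes in either direction. By these 2 measures the ligands lay above the background. Without overlap, 9 of the 79 lay higher and 9 lower in PSC5 cells, beside 11% and 10.1% of all genes, so only the non-overlap shares were near the background. Fst, which binds activins, stood at 96.6, 132.2 and 94.3 CPM in PSC4 cells and at 43.0, 42.5 and 46.2 CPM in PSC5 cells (log2 fold change -1.29 ± 0.16, adjusted p = 0.203). The groups did not overlap, nor did those of Sfrp1, a Wnt antagonist (-1.23 ± 0.29, adjusted p = 0.270), or Cxcl12, a chemokine of fibroblasts (-0.98 ± 0.29, adjusted p = 0.334). In the other direction lay Ccl5, an interferon-induced chemokine (2.19 ± 0.41, adjusted p = 0.237), C3 of complement (0.88 ± 0.19, adjusted p = 0.257) and Csf1 (0.46 ± 0.13, adjusted p = 0.307).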

How the data were processed

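RNA-seq of 6 sorted organoid libraries and, as context, the 6 PSC libraries of the same cultures was used. The deposited tables give an estimated count (expected count) and a TPM per transcript, which the authors computed by Salmon 1.9.0 (GRCm39/mm39), as given per the submitters' processing notes. Strandedness and annotation were not given in the sources used here, so near-identical, overlapping and antisense genes can share counts. Of 117135 transcripts 115973 (99.0%) matched GENCODE M21, used for names only. The rest, 0.364 to 0.399% of reads in these organoid libraries, were left out. Counts were summed over 35523 genes and rounded. CPM uses TMM sizes over all 23 libraries. Deposited TPM values were not tested.

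Tests used edgeR 4.0.16 in R 4.3.3 (filterByExpr, TMM, robust quasi-likelihood fit) with genotype and parent line, leaving 3 residual degrees of freedom (2 for the interaction), and Benjamini-Hochberg adjustment over all genes. Adjusted p-values come from it unless another tool is named. On simulated counts, the changed genes that were called had the right sign. The share of false calls was above the nominal level, so the 104 calls may hold more false ones than the threshold states. No pair of libraries within a group agreed within sampling noise (chi-square per degree of freedom 11.8 to 41.8). The members, lists and tests were chosen with earlier results of these data known.

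Named genes are, per direction, the 12 largest fold changes among called protein-coding, not predicted genes with a mean log2 CPM of at least 1, no overlap and a PSC level under 10 times the organoid level (others named apart), and up to 6 members per list by p. Fgf15, Trpm6, Selenbp1, Plod1, Fubp1, Rbm12 and the splicing genes were added after their values were seen. Alternatives were DESeq2 1.42.0, limma-voom 3.58.1, RLE, no filter, no genotype covariate, KO libraries only, all 11 organoid libraries, and leaving out each library. No table held columns of other samples (0). Some genes are not reported here.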

Additional observations from a re-analysis of the deposited data

Results flagged for a closer look

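A test of whether the parent-line difference varied with PSC genotype passed for 3 genes, but each Rosa arm is 1 library, so a single library can decide such a call and dependence on genotype is not shown. Fam220a (ENSMUSG00000118332), a gene with a second identifier of the same name, had an interaction of -2.96 on the log2 scale (adjusted p = 0.000649 with edgeR): it stood at 3.1, 23.8 and 26.4 CPM with PSC4 and at 25.2, 27.8 and 25.8 CPM with PSC5. The other Fam220a identifier stood at 25.1 CPM in the PSC4 Rosa library and at 0.2 to 1.6 CPM in the other 5. The sum of both lay between 24.0 and 28.7 CPM in all 6 libraries. Pif1 had an interaction of 2.44, with a low value in the PSC5 Rosa library only. The pseudogene Gm7329 had an interaction of -17.19, a fitted value with no readable size because its level was 0 in 3 of the 6 libraries and at most 1.98 CPM in the others.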

How the results depend on the processing

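The parent-line count of 104 was 524 with DESeq2 (256 higher, 268 lower), 485 with no filter, 0 without the genotype covariate and 9 with an absolute log2 fold change of at least 1, and 0 to 243 over the leave-one-out fits. With RLE it was 105, with limma-voom 104, with all 11 organoid libraries 74, with KO libraries only 71, and without genes at 10 times or more in PSCs 106. The interaction count of 3 was 22 with DESeq2, 182 with no filter and 3 to 13 on leaving out KO libraries. The PSC count of 2 was 606 with DESeq2 (361 higher), 47 with no filter, 0 with KO libraries only and 0 to 3 over the leave-one-out fits. Leaving out either Rosa library leaves the estimate to the KO libraries, so those fits largely repeat the KO-only one. Of 72 organoid genes given with a fold change, some of them never called, 0 changed sign under any setting. All 54 that had been called lost their call without the genotype covariate, and all 54 without PSC4 KO A3. With limma-voom 1 lost its call, and with RLE or DESeq2 0 did. The mean carry-over with PSC4, 0.0178% from 20 stellate markers, was 0.0478% from myofibroblast markers. The cause of these changes was not tested. No paired analysis was possible because the groups compared share no replicate numbers. Genes near 1 CPM, such as Fam71a and many interferon genes in the PSC4 cultures, rest on few counts, and a change not detectable there is not shown to be absent.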
